A study of Mus musculus with 20 samples.

Results

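The genes described here are the LIF receptor and STAT3 pathway of mouse embryonic stem cells (mESCs). They are Lifr, Il6st, Jak1, Stat3, Socs3, Socs2, Pim1, Pim3 and Bcl3, 9 of the 22416 gene names in a table of ribosome footprint counts. They were taken by name as parts of the pathway, with no threshold on their values. All 9 names were found, and 8 had enough footprints to be tested; the exception was Socs2. The cells were wild type (eIF2α+/+, WT) or carried the eIF2αA/A knock-in (KI), which puts alanine at the regulatory phosphorylation site of the translation initiation factor eIF2α. Each genotype grew in medium with leukemia inhibitory factor (LIF), or with LIF plus PD0325901, an inhibitor of MEK, and CHIR99021, an inhibitor of GSK3 (LIF/2i), for 6 days. All groups shared LIF at 1000 U/mL, in a serum-free base supplemented with KnockOut serum replacement, so LIF itself was present throughout. Footprints came from micrococcal nuclease (MNase) or RNase I, with 3 and 2 libraries respectively for each of the 4 combinations of genotype and medium. The sources used here do not state how many KI clones these libraries represent.

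LIF binds the receptor chain LIFR, which pairs with IL6ST (gp130), and the kinase JAK1 on these chains phosphorylates the transcription factor STAT3. Phosphorylated STAT3 enters the nucleus and activates genes that hold mESCs in self-renewal, among them the kinases PIM1 and PIM3 and the nuclear cofactor BCL3. It also induces SOCS3, an inhibitor that binds the receptor complex and closes a negative feedback loop.

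In these data the receptor chains, Jak1 and Stat3 showed no called difference in footprint level between genotypes or media. When KI replicate 1 was left out, Jak1 with MNase was called higher in KI in LIF/2i and in LIF (log2 0.62 and 0.59). In that setting 39.1% and 26.7% of all genes were called. With RNase I the genotypes overlapped for Jak1 in both media. Socs3 was 1.95-fold lower in KI than in WT in LIF/2i with MNase (3 libraries in each group) and 1.78-fold higher in LIF than in LIF/2i within KI. Bcl3 was 1.86-fold lower in LIF than in LIF/2i within KI and 1.89-fold lower in KI than in WT in LIF. The Socs3 difference between media and both Bcl3 calls were lost when certain single libraries were left out. With RNase I (2 libraries in each group) none of the members passed in edgeR, while DESeq2 called Bcl3 lower in LIF in each genotype. The RNase I log2 genotype differences were −0.19 for Socs3 in LIF/2i and −0.19 for Bcl3 in LIF. In LIF/2i the genotype difference depended on the nuclease for Socs3 and Bcl3 where same-numbered libraries were paired. In that test 15.3% of all genes passed, and without pairing 0%.

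The MNase libraries held 2127850 to 5461210 counts in WT and 6560173 to 8894080 in KI, so every KI library was deeper than every WT library. RNase I libraries had 4011036 to 22916734 counts in WT and 1965050 to 16359039 in KI. All 10 embryonic stem cell markers examined were detected in each group, with summed levels of 4080 to 6990 CPM, the count scaled to a common library size. Eif2s1, the gene for eIF2α, had MNase levels in LIF/2i of 101 ± 11.2 in WT against 158 ± 19.9 CPM in KI (SD, n = 3), and in LIF of 108 ± 8.17 against 133 ± 2.44 CPM. Such a level cannot check a change of 1 amino acid. Results that move without KI replicate 1 are given both ways. In these bulk samples, fewer cells of a type and fewer footprints per cell cannot be told apart, and a footprint difference combines RNA level and translation.

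**Figure D1:**
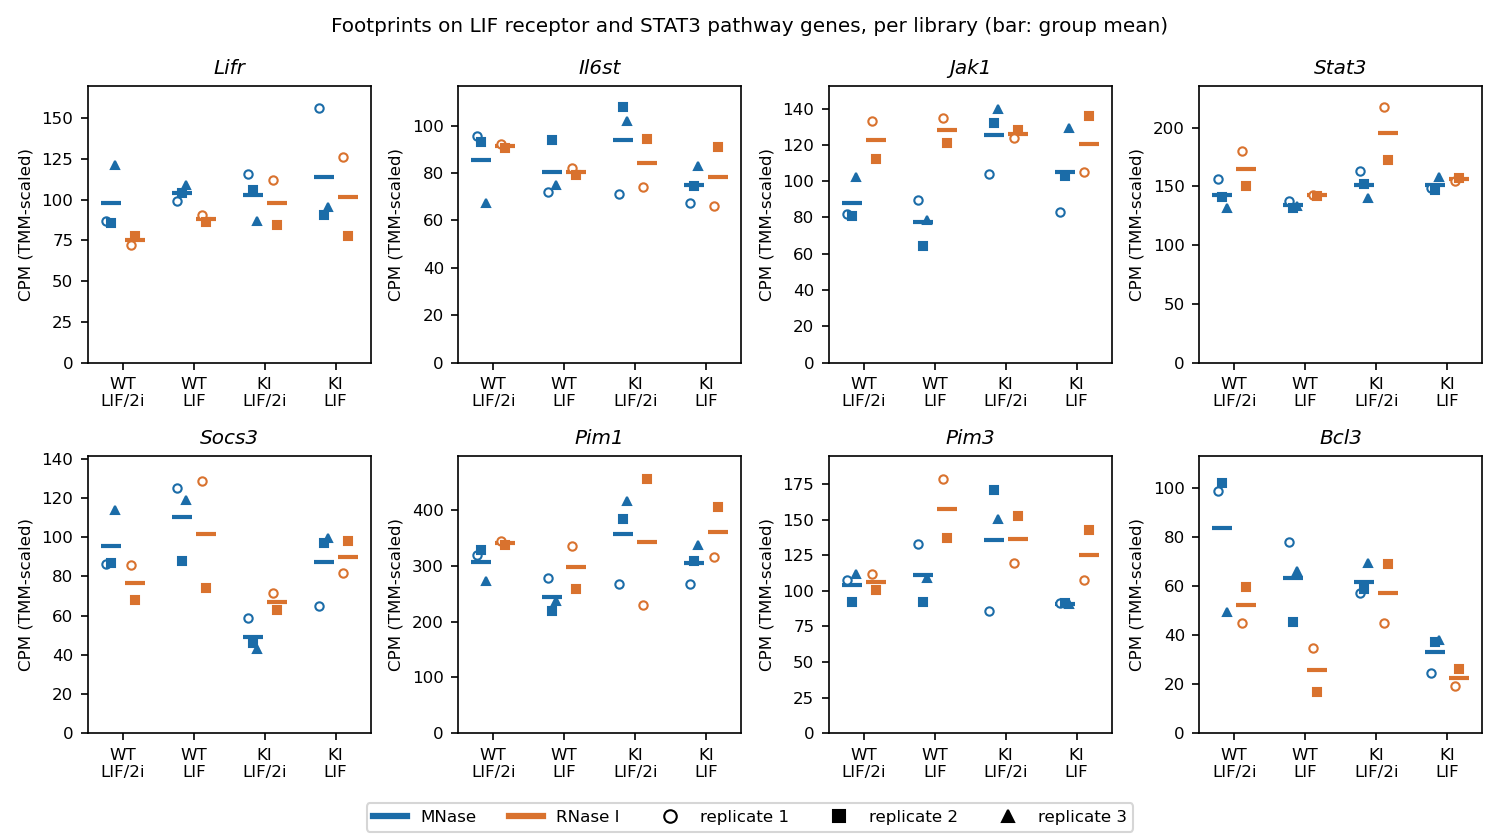
Level of each tested gene in every library, in CPM scaled by the trimmed mean of M values (TMM), from 0 on each axis; open circles mark replicate 1, colours mark the nuclease and short bars mark group means. Socs3 with MNase sat between 42.9 and 58.6 CPM in KI in LIF/2i, below every other MNase library, and Bcl3 with MNase sat between 24.5 and 38.0 CPM in KI in LIF, below every other MNase library.

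Levels are CPM throughout, scaled within each nuclease; they depend on the length of each coding sequence, so levels of different genes are not compared. A gene is called higher or lower where edgeR's quasi-likelihood test, adjusted over all genes tested, gave p under 0.05. Differences are log2 fold changes, KI over WT or LIF over LIF/2i.

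The receptor chains showed no called difference between groups. Lifr, which binds LIF, was at 87.2, 85.4 and 121 CPM in WT in LIF/2i, 99.0, 104 and 109 in WT in LIF, 116, 106 and 87.1 in KI in LIF/2i, and 156, 90.8 and 95.4 CPM in KI in LIF with MNase. Its highest library was KI LIF replicate 1, and the groups overlapped in each comparison. The log2 differences ran from 0.07 to 0.14 (SE 0.20 to 0.21), with all intervals lying within −0.37 to 0.58. Without KI LIF replicate 1 the difference between KI and WT in LIF changed sign, from 0.13 to −0.16 (edgeR adjusted p = 0.548). With RNase I, Lifr was at 72.2 and 77.7 CPM in WT in LIF/2i, 90.5 and 86.3 in WT in LIF, 112 and 84.5 in KI in LIF/2i, and 126 and 77.8 CPM in KI in LIF.

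Il6st, the signalling chain shared by the cytokines of the interleukin-6 family, was at 95.4, 93.0 and 67.4 CPM in WT in LIF/2i, 72.1, 94.1 and 74.9 in WT in LIF, 71.2, 108 and 102 in KI in LIF/2i, and 67.2, 74.4 and 82.9 CPM in KI in LIF with MNase. Its groups overlapped in each MNase comparison. The largest difference was −0.32 between LIF and LIF/2i in KI (SE 0.19, interval −0.72 to 0.07, edgeR adjusted p = 0.248). With RNase I, Il6st was at 92.1 and 90.6 CPM in WT in LIF/2i, 82.0 and 79.2 in WT in LIF, 74.1 and 94.3 in KI in LIF/2i, and 66.0 and 90.9 CPM in KI in LIF. In WT the media did not overlap there, and the difference was −0.18 (SE 0.20, adjusted p = 0.606).

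Jak1, the receptor-bound kinase, was at 81.6, 80.7 and 102 CPM in WT in LIF/2i with MNase and at 104, 132 and 140 CPM in KI in LIF/2i. The groups lay close together and did not overlap. In LIF it was at 89.4, 64.3 and 78.4 CPM in WT and at 83.2, 103 and 129 CPM in KI, with KI replicate 1 inside the WT range. The log2 differences were 0.51 (SE 0.19, interval 0.11 to 0.91, edgeR adjusted p = 0.0611) in LIF/2i and 0.44 (SE 0.19, interval 0.04 to 0.85, adjusted p = 0.133) in LIF. Without KI replicate 1 in both media, both passed, at 0.62 (edgeR adjusted p = 0.00728) and 0.59 (adjusted p = 0.016). Of all genes, 39.1% and 26.7% were called in that setting, against 25.4% and 13.4% with all libraries. The value in LIF/2i also passed without KI LIF/2i replicate 1, KI LIF replicate 1 or KI LIF replicate 3 alone, with log2 fold changes of 0.42 to 0.63 over all single libraries left out. The value in LIF passed without KI LIF replicate 1 alone (0.59, adjusted p = 0.0471). With RNase I, Jak1 was at 133 and 112 CPM in WT in LIF/2i, 135 and 121 in WT in LIF, 124 and 128 in KI in LIF/2i, and 105 and 136 CPM in KI in LIF, and the genotypes overlapped in both media (log2 0.04 and −0.08, SE 0.17 and 0.18).

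Stat3, the transcription factor at the centre of the pathway, had the narrowest range of the members with MNase. It was at 156, 141 and 132 CPM in WT in LIF/2i, 138, 132 and 133 in WT in LIF, 163, 152 and 140 in KI in LIF/2i, and 149, 147 and 158 CPM in KI in LIF. None of the MNase comparisons passed for it, with log2 differences between −0.09 and 0.18 and SE of 0.11. In LIF the 3 KI libraries were above the 3 WT libraries by 0.18 (interval −0.06 to 0.41, edgeR adjusted p = 0.319). With RNase I, Stat3 was at 180 and 150 CPM in WT in LIF/2i, 143 and 142 in WT in LIF, 218 and 173 in KI in LIF/2i, and 155 and 157 CPM in KI in LIF. LIF was below LIF/2i in each genotype without overlap, by −0.22 in WT (SE 0.17, edgeR adjusted p = 0.442) and −0.32 in KI (SE 0.17, interval −0.71 to 0.06, adjusted p = 0.358).

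Socs3, the feedback inhibitor, had the 1 called genotype difference among the 8 tested members in LIF/2i with MNase. In that comparison 25.4% of all genes were called, 11.5% lower and 13.8% higher. Socs3 with MNase was at 86.5, 86.9 and 114 CPM in WT in LIF/2i (replicates 1, 2 and 3). In KI in LIF/2i it was at 58.6, 46.1 and 42.9 CPM. The groups did not overlap. In LIF the levels were 125, 87.9 and 119 CPM in WT and 65.1, 97.1 and 99.9 CPM in KI, and these overlapped. By group mean, the order was KI in LIF/2i (49.2 ± 8.32), KI in LIF (87.4 ± 19.3), WT in LIF/2i (95.7 ± 15.7) and WT in LIF (111 ± 20 CPM, SD, n = 3). The step from the lowest to the next was larger than the SDs, and each of the upper 3 groups lay within 1 SD of its neighbour in this order.

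In LIF/2i, Socs3 was 1.95-fold lower in KI than in WT (log2 fold change −0.96, SE 0.20, 95% interval −1.40 to −0.53, edgeR adjusted p = 0.0054). Leaving out each library in turn kept the call, with log2 fold changes from −1.11 to −0.82. With all MNase libraries thinned to the smallest it was −0.96 (adjusted p = 0.00771), so the value was as large at equal depth. Within KI, Socs3 was 1.78-fold higher in LIF than in LIF/2i (log2 0.83, SE 0.20, interval 0.40 to 1.26, edgeR adjusted p = 0.0117). This call was lost without KI LIF/2i replicate 2 (log2 0.78, adjusted p = 0.0509), KI LIF/2i replicate 3 (0.74, 0.0545) or KI LIF replicate 3 (0.72, 0.0552). In WT the same change of medium gave 0.21 (SE 0.20, interval −0.23 to 0.64), which did not pass (adjusted p = 0.515). The difference between the genotypes in this response was 0.62 (SE 0.28, interval 0.01 to 1.24) and did not pass over all genes (edgeR adjusted p = 0.399). When KI replicate 1 was left out in both media, the value was 0.94 and passed (edgeR adjusted p = 0.0451). Of all genes, 3.45% passed for this difference in that setting, against 0.336% with all libraries.

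With RNase I, Socs3 was at 85.7 and 67.8 CPM in WT in LIF/2i, against 71.6 and 62.7 CPM in KI in LIF/2i. In LIF it was at 129 and 74.0 CPM in WT and at 82.0 and 98.1 CPM in KI. The genotypes overlapped in both media. The log2 fold change in LIF/2i was −0.19 (SE 0.26, interval −0.79 to 0.41, edgeR adjusted p = 0.8), and the change from LIF/2i to LIF in KI was 0.42 (SE 0.27, adjusted p = 0.475).

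The sequence before the start of Socs3 is shown because this gene's promoter was the only one of the members' to hold the core letters TTCNNNGAA, where N is any base, which are those of a STAT dimer motif and read the same on both strands. The motif was looked for from 250 bases before to 50 bases after each start in the RefSeq table of mouse promoters (GRCm38.p6). The table held 8 of the 9 members with 10 windows in all; Socs2 was not matched. Among all 32851 windows of the same length, 8.3% held the motif, and 9.55% of 27025 genes had at least 1 such window. The 250 bases lie at chr11:117969367-117969616 on the minus strand, 5′ to 3′, and the capitals mark the motif, which begins 154 bases before the start.
Socs3: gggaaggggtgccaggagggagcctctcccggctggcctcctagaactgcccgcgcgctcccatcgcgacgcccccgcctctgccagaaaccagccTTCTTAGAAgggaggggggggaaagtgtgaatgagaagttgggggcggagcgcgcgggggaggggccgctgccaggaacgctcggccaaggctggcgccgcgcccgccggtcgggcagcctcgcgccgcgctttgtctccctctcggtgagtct
Bcl3, shown beside it as a member with called differences and no match to these letters, lies at chr7:19822756-19823005 on the minus strand.
Bcl3: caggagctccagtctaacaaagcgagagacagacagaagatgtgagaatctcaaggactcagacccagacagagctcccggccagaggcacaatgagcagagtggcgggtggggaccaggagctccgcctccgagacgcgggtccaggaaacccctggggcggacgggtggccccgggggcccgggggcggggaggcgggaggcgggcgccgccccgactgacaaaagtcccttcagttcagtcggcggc
A match to letters is a description of these windows and not evidence of binding.

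Socs2, a second inhibitor of the same family, was barely covered. It had 0 to 8 footprints per library, with at most 0.894 CPM, and was not tested. No footprint was counted in 4 of the 20 libraries. These were both RNase I libraries of WT in LIF, and KI LIF/2i replicate 1 with each nuclease; 0 counts there allow up to 0.676, 0.738, 0.184 (RNase I) and 0.458 CPM (MNase), by counting error alone. The 3 MNase libraries of KI in LIF had 3, 6 and 8 footprints, against 3 in KI LIF/2i replicate 2 and 0 to 2 in each of the other MNase libraries, which differed in depth.

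Bcl3, a member of the IκB family that acts in the nucleus with NF-κB subunits, had the largest difference between media among the tested members, in each genotype and with each nuclease. With MNase it was at 57.1, 58.6 and 69.3 CPM in KI in LIF/2i, against 24.5, 37.1 and 38.0 CPM in KI in LIF. In WT it was at 98.6, 102 and 49.4 CPM in LIF/2i, and in LIF at 78.0, 45.3 and 65.8 CPM. The KI groups did not overlap between media, whereas the WT groups did. By group mean the order was KI in LIF (33.2 ± 7.55), KI in LIF/2i (61.7 ± 6.64), WT in LIF (63.0 ± 16.5) and WT in LIF/2i (83.4 ± 29.5 CPM, SD, n = 3), with the middle pair and the upper pair each within their spread.

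Within KI, Bcl3 was 1.86-fold lower in LIF than in LIF/2i (log2 −0.89, SE 0.27, interval −1.47 to −0.31, edgeR adjusted p = 0.0348). In LIF it was 1.89-fold lower in KI than in WT (log2 −0.92, SE 0.27, interval −1.50 to −0.33, edgeR adjusted p = 0.0433). Neither call was stable to the loss of 1 library. For the change of medium, leaving out WT LIF replicate 3 gave an adjusted p of 0.0528. Leaving out KI LIF/2i replicate 2 or 3 gave 0.0692 or 0.103, and leaving out KI LIF replicate 1, 2 or 3 gave 0.0856, 0.0633 or 0.0604. The log2 fold changes then ran from −1.0 to −0.72. For the genotypes in LIF, omitting WT LIF/2i replicate 1 gave 0.0556, and omitting WT LIF replicate 1 or 3 gave 0.168 or 0.127. Omitting KI LIF/2i replicate 2 or 3 gave 0.056 or 0.0546, and omitting KI LIF replicate 1, 2 or 3 gave 0.0951, 0.0729 or 0.0789. There the log2 fold changes ran from −1.02 to −0.73. Without KI replicate 1 in both media neither passed (−0.77, adjusted p = 0.0708, and −0.74, adjusted p = 0.0655). Scaling by library totals alone took the change of medium to −0.78 (adjusted p = 0.0594).

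With RNase I, Bcl3 was at 44.8 and 59.6 CPM in WT in LIF/2i, against 34.5 and 16.7 CPM in WT in LIF. In KI it was at 44.7 and 69.0 CPM in LIF/2i, and in LIF at 19.1 and 26.1 CPM. The media did not overlap in either genotype, and LIF was lower in each. The log2 fold changes were −1.02 in WT (SE 0.36, interval −1.85 to −0.20, edgeR adjusted p = 0.103) and −1.32 in KI (SE 0.38, interval −2.20 to −0.45, adjusted p = 0.107), neither past the threshold. DESeq2 on the same counts called both (−1.03, adjusted p = 0.0493, and −1.31, adjusted p = 0.0225), as did edgeR without the filter on low counts. The genotype difference in LIF was −0.19 with RNase I (SE 0.39, interval −1.09 to 0.71, edgeR adjusted p = 0.867).

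Pim3, a serine/threonine kinase gene that STAT3 activates, showed opposite signs of the genotype difference in the 2 media. With MNase it was at 108, 92.1 and 112 CPM in WT in LIF/2i, against 85.8, 171 and 151 CPM in KI in LIF/2i. In LIF it was at 133, 92.2 and 109 CPM in WT and at 91.2, 91.2 and 90.9 CPM in KI. KI LIF/2i replicate 1 was the lowest MNase library of all, while the other 2 replicates of that group were the highest. The log2 differences between KI and WT were 0.39 in LIF/2i (SE 0.21, edgeR adjusted p = 0.196) and −0.28 in LIF (SE 0.21, adjusted p = 0.41), and neither passed. Their difference was −0.67 with MNase (SE 0.30, interval −1.32 to −0.02, edgeR adjusted p = 0.391).

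In RNase I libraries Pim3 was at 112 and 101 CPM in WT in LIF/2i, 179 and 137 in WT in LIF, 120 and 153 in KI in LIF/2i, and 108 and 143 CPM in KI in LIF. The WT media did not overlap and the KI media did. The difference of the responses was −0.70 (SE 0.30, interval −1.37 to −0.02), and it did not pass over all genes either (edgeR adjusted p = 0.927). Within KI, Pim3 with MNase differed by −0.58 between LIF and LIF/2i (SE 0.21, interval −1.03 to −0.13, edgeR adjusted p = 0.0733). Same-numbered KI libraries deviated together across the media, and with the replicate block within KI the value was −0.53 and passed (adjusted p = 0.0475). Without KI replicate 1 in both media, KI was higher than WT in LIF/2i by 0.63 (adjusted p = 0.00438), the difference of LIF from LIF/2i in KI was −0.83 (adjusted p = 0.00253), and the genotype difference in this response was −0.91 (adjusted p = 0.0341). Leaving out KI LIF/2i replicate 1 alone gave 0.63 and −0.83 for the first 2 of these (edgeR adjusted p = 0.00878 and 0.00236). With KI replicate 1 left out in both media, 39.1%, 25% and 3.45% of all genes passed in the same comparisons. With all libraries these shares were 25.4%, 18.7% and 0.336%, and with the block within KI 26.1% of all genes passed between media in KI.

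Pim1, the related kinase gene, was at 319, 328 and 272 CPM in WT in LIF/2i with MNase and at 278, 219 and 237 CPM in WT in LIF. In KI it was at 268, 384 and 417 CPM in LIF/2i, and in LIF at 268, 309 and 337 CPM. KI replicate 1 was the lowest library of each KI group. Group means ran from 245 ± 30.2 CPM (WT in LIF) through 304 ± 34.8 (KI in LIF) and 307 ± 30.1 (WT in LIF/2i) to 356 ± 78.6 CPM (KI in LIF/2i), with overlap between neighbours. The log2 differences between KI and WT were 0.22 in LIF/2i (SE 0.16, edgeR adjusted p = 0.349) and 0.32 in LIF (SE 0.16, adjusted p = 0.224). Without KI replicate 1 in both media they were 0.38 (edgeR adjusted p = 0.0259) and 0.40 (adjusted p = 0.0313). The change from LIF/2i to LIF in WT, −0.33, then passed as well (edgeR adjusted p = 0.0427 against 0.185 with all libraries). In that setting 39.1%, 26.7% and 32.3% of all genes were called in the same order, against 25.4%, 13.4% and 21% with all libraries. With RNase I, Pim1 was at 345 and 337 CPM in WT in LIF/2i, 335 and 259 in WT in LIF, 230 and 456 in KI in LIF/2i, and 316 and 406 CPM in KI in LIF, so the 2 KI libraries in LIF/2i lay below and above all WT libraries.

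**Figure D2:**
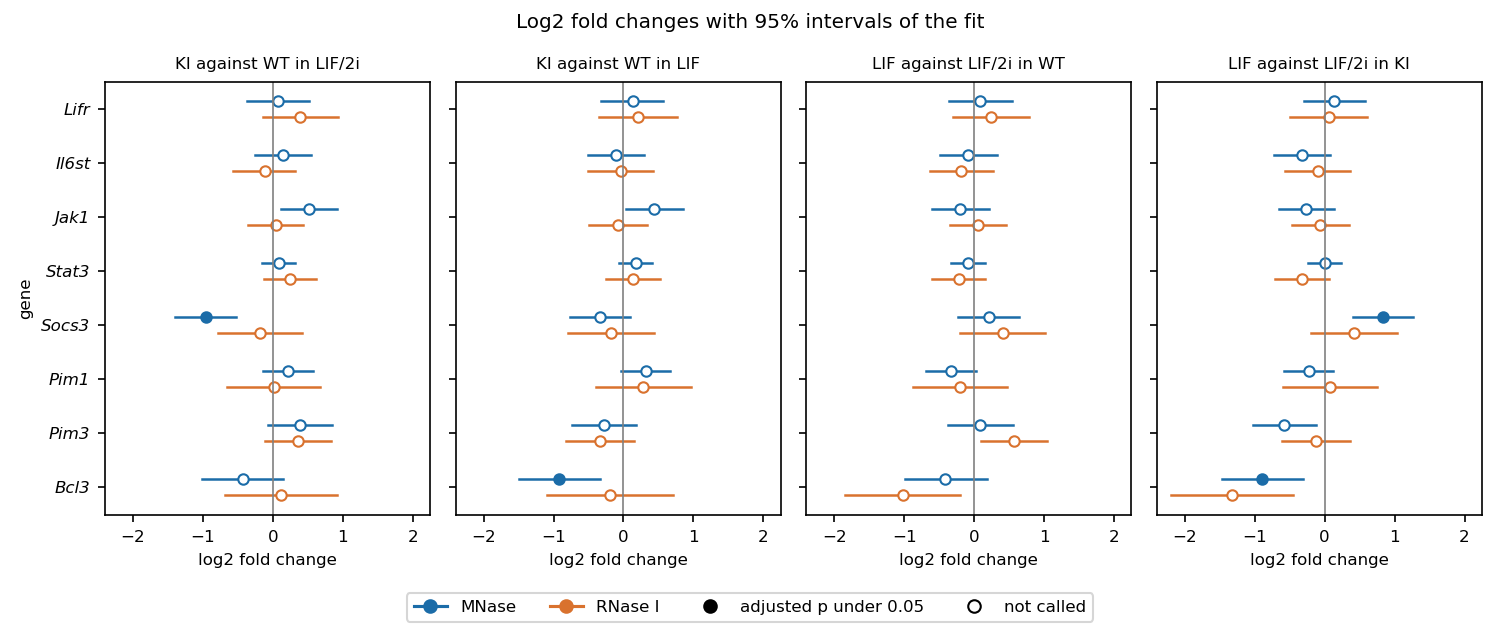
Log2 fold changes of the tested genes in the 4 comparisons, with 95% intervals of the fit; filled points passed at adjusted p under 0.05. With MNase, Socs3 passed for KI against WT in LIF/2i (−0.96) and LIF against LIF/2i in KI (0.83), and Bcl3 for KI against WT in LIF (−0.92) and LIF against LIF/2i in KI (−0.89); no point passed with RNase I.

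Counts of called members are set beside the share of all genes called in the same comparison. With MNase, 1 of 8 tested members (Socs3, lower) was called between the genotypes in LIF/2i, where 25.4% of all 12806 tested genes were called (11.5% lower, 13.8% higher), and the libraries of 2 members (Socs3 and Jak1) did not overlap, against 39.8% of all genes. In LIF, 1 of 8 (Bcl3, lower) was called between the genotypes against 13.4% of all genes (6.05% lower, 7.36% higher), and 3 (Bcl3, Stat3 and Pim3) did not overlap against 35.5%. The median log2 difference of the members was 0.11 in LIF/2i and 0.01 in LIF, and over all genes 0.006 and −0.007. Between media, 0 of 8 were called in WT by edgeR, by DESeq2 or at an unadjusted p under 0.05, against 21% of all genes (9.99% higher, 11% lower), and 0 did not overlap against 42.5%. In KI, 2 of 8 (Socs3 higher, Bcl3 lower) were called between media against 18.7% of all genes (8.37% higher, 10.3% lower), and the same 2 did not overlap against 34.9%. The member medians were −0.09 in WT and −0.24 in KI, and over all genes 0.007 and −0.003. The interaction was called for 0 of 8 by edgeR and by DESeq2, and 2 (Socs3 and Pim3) had an unadjusted p under 0.05; 0.336% of all genes were called. The comparisons share groups, so their counts are not independent.

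With RNase I, 0 of 8 members were called in any of the 5 comparisons by edgeR. All genes were called in 0.232% of cases between genotypes in LIF/2i, 0.116% in LIF, 13.6% between media in WT (7.17% higher, 6.47% lower), 3.46% in KI (1.41% higher, 2.04% lower), and 0% for the interaction. Members without overlap numbered 2 (Lifr and Pim3), 1 (Stat3), 6 and 3 (Stat3, Socs3 and Bcl3) in the first 4, against 43.5%, 46.5%, 64.8% and 43.3% of all 12095 tested genes. The 6 in WT between media were Lifr and Pim3, higher in LIF, and Il6st, Stat3, Pim1 and Bcl3, lower. Unadjusted p under 0.05 was reached by 0, 0, 2 (Pim3 and Bcl3), 1 (Bcl3) and 1 (Pim3) members in the 5 comparisons, and DESeq2 called 0, 0, 1, 1 and 0, each time Bcl3. DESeq2 called 16.3% of all genes between media in WT and 6.82% in KI.

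Markers of other cell types moved with several of these comparisons; their part in the results was not tested. In LIF with MNase, 8 of 11 tested markers of primitive and extraembryonic endoderm and 4 of 8 of trophoblast were lower in KI than in WT, with summed levels of 394 to 473 against 874 to 1130 CPM and 322 to 336 against 558 to 775 CPM. In the same comparison, where 6.05% of all genes were called lower, 3 of 10 embryonic stem cell markers were lower in KI. These stand beside the Bcl3 difference in LIF. Summed fibroblast and feeder cell markers were at 228, 1030 and 119 CPM in the 3 WT LIF libraries with MNase against 275 to 305 CPM in KI, and at 114 and 921 CPM in WT LIF with RNase I, so WT LIF replicate 2 was far above the others with each nuclease. Without its MNase library the Bcl3 difference in LIF was −1.10 (edgeR adjusted p = 0.038). In LIF/2i, 2 of 8 fibroblast markers were higher in KI (41.8 to 87.4 against 13.8 to 18.4 CPM in sum, with Dcn and Lum at 0 in both groups) and 2 of 11 endoderm markers were lower, beside the Socs3 difference. Among 10 embryonic stem cell markers, 2 were higher and 1 was lower in KI in LIF/2i. Of all genes, 13.8% were called higher and 11.5% lower there. Between media in KI, 4 of 8 fibroblast and 3 of 5 neuroectoderm markers were higher in LIF. Their summed levels were 275 to 305 and 128 to 161 CPM, against 41.8 to 87.4 and 54.2 to 128 CPM in LIF/2i. Of 10 embryonic stem cell markers, 6 were lower and 1 was higher in LIF. In this comparison 8.37% of all genes were called higher and 10.3% lower. Between media in WT with MNase, 0 of 8 members were called. There 6 of 11 endoderm, 7 of 8 trophoblast and 6 of 8 fibroblast markers were higher in LIF. Of 10 embryonic stem cell markers, 1 was higher and 3 were lower, and of all genes 9.99% were called higher and 11% lower.

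The nuclease itself went with different levels of several members. Over replicates 1 and 2 of the 4 groups, 16 libraries, Jak1 was 1.41-fold higher with RNase I than with MNase (log2 0.49, SE 0.10, edgeR adjusted p = 0.00263) and Bcl3 1.55-fold lower (log2 −0.63, SE 0.18, adjusted p = 0.0178). These were 2 of 8 members, and 30.1% of 12732 genes were called (14.9% higher, 15.3% lower). Same-numbered libraries of the nucleases deviated together, and with them as a replicate block 6 of 8 members were called, against 54.3% of all genes. In that fit Jak1 (0.50), Pim3 (0.34), Pim1 (0.21) and Stat3 (0.19) were higher and Bcl3 (−0.65) and Lifr (−0.17) lower with RNase I, with adjusted p of 0.0129 or less and SE of 0.05 to 0.08. Il6st and Socs3 did not pass, at 0.04 (interval −0.10 to 0.17) and 0.10 (interval −0.03 to 0.24).

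Whether the genotype difference in LIF/2i depended on the nuclease was tested directly. Without pairing, no member passed (0 by edgeR, 0 by DESeq2, 0 at an unadjusted p under 0.05; 0% of all genes): the difference, RNase I minus MNase, was 0.56 for Socs3 (SE 0.40, interval −0.31 to 1.42) and 0.93 for Bcl3 (SE 0.49, interval −0.12 to 1.98). With the replicate block, 2 of 8 members passed against 15.3% of all genes. Socs3 differed by 0.56 (SE 0.18, interval 0.19 to 0.93, edgeR adjusted p = 0.0398) and Bcl3 by 0.91 (SE 0.19, interval 0.51 to 1.31, adjusted p = 0.0046). Over all libraries, the genotype differences in LIF/2i were −0.96 with MNase and −0.19 with RNase I for Socs3, and −0.43 and 0.12 for Bcl3, of which the first was the one called. The remaining 4 comparisons gave 0 of 8 members with or without the block; in LIF, the block gave Bcl3 a difference of 0.87 (SE 0.26, adjusted p = 0.149).

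KI replicate 1 was compared with replicates 2 and 3 of its medium with MNase, and with replicate 2 alone with RNase I, where the libraries cannot show which of the pair stands apart. Several members had the same sign of this difference in all 4 KI groups. Lifr was higher in replicate 1, by log2 differences of 0.28 and 0.74 (MNase, LIF/2i and LIF) and 0.40 and 0.70 (RNase I). Il6st was lower by −0.56, −0.22, −0.35 and −0.46 in the same order, and Pim1 by −0.58, −0.27, −0.98 and −0.36. Jak1 and Bcl3 were also lower in all 4 (−0.46 to −0.05 and −0.62 to −0.16). The differences of the ligand-binding chain and the signalling chain of the receptor thus had opposite signs. Replicate 1 was not always the library apart: Lifr in KI in LIF/2i with MNase was at 116, 106 and 87.1 CPM (replicates 1, 2 and 3). In all, 5 of 8 members kept 1 sign in the 4 groups, as did 45% of 12046 genes; a difference of at least 0.3 with 1 sign in all 4 was seen for 0 of 8 members and 18% of these genes. Socs3 did not: it was higher in LIF/2i (0.40 and 0.19) and lower in LIF (−0.59 and −0.26), so that its response to medium was smaller in replicate 1 with each nuclease.

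**Figure D3:**
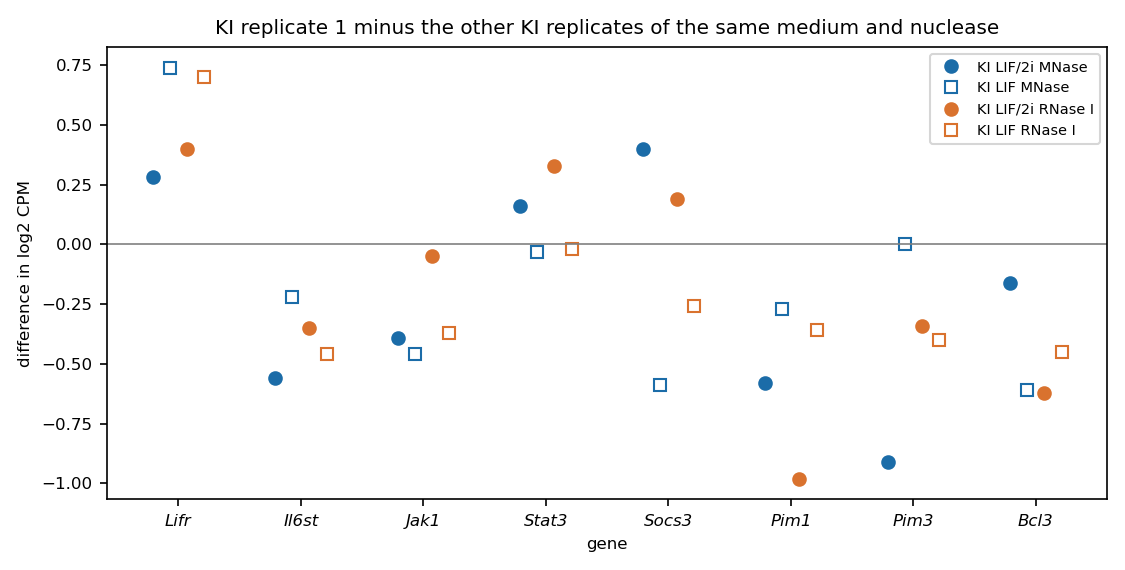
Log2 CPM of KI replicate 1 minus the mean of the other KI replicates of the same medium and nuclease (2 with MNase, 1 with RNase I), for each tested gene; the line marks 0. Lifr lay above 0 in all 4 groups and Il6st, Jak1, Pim1 and Bcl3 below, while Socs3 was above in LIF/2i and below in LIF.

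The genes with the most similar profiles over the 12 MNase libraries, among 10455 genes with a mean of at least 5 CPM, are given as a description; libraries, scaling and the 4 groups are shared by each pair. For Socs3 they were Ankrd13d (Pearson r = 0.954), Prss36 (0.951) and Tnfsf12 (0.942), and for Bcl3 Zfp704 (0.944), Hnrnpa0 (0.941) and Dact2 (0.935). Lifr was nearest to Akr1b10 (0.962), Nfyb (0.921) and Plrg1 (0.898), and Il6st to Zbtb21 (0.886), Rhob (0.886) and Rragd (0.885). Jak1 was nearest to Ankrd28 (0.939), Zbtb11 (0.938) and Haus6 (0.938), and Stat3 to Aldh2 (0.895), Nxf1 (0.883) and Tomm20 (0.883). For Pim1 they were Slc16a14 (0.943), Slc25a25 (0.941) and Zbtb43 (0.926), and for Pim3 Rfk (0.891), Anapc10 (0.876) and Daam1 (0.872). Over the 8 RNase I libraries the first-named pair gave 0.803 for Lifr, 0.84 for Il6st, 0.798 for Bcl3 and 0.578 for Pim1. It gave 0.471 for Jak1, 0.227 for Socs3, 0.06 for Pim3 and −0.078 for Stat3. All the pairs named ran there from −0.21 (Pim3 and Daam1) to 0.859 (Lifr and Nfyb).

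Other genes that STAT3 is known to act on in mESCs moved in both directions between media with MNase, while the median stayed near that of all genes. Of 14 such genes, 4 were higher and 4 lower in LIF than in LIF/2i in WT (median 0.09), and 4 were higher and 6 lower in KI (median 0.03), where 21% and 18.7% of all genes were called. Tfcp2l1, a transcription factor of naive pluripotency, went in WT from 675 ± 190 to 194 ± 27.6 CPM (log2 −1.80 with SE 0.20, edgeR adjusted p = 0.000117) and from 711 ± 37.3 to 127 ± 28.1 CPM in KI (log2 −2.48, SE 0.20, adjusted p = 3.21e-05). Icam1, which encodes an adhesion molecule, was lower in LIF in WT (log2 −0.91, SE 0.17). Myc went the other way, from 5.33 ± 2.32 to 50.5 ± 17.5 CPM in WT (log2 3.28, SE 0.56, adjusted p = 0.00136), as did Cebpb (2.32, SE 0.40). Pim2, the third PIM kinase gene, was higher in LIF in KI, from 8.02 ± 1.59 to 58.7 ± 12.4 CPM (log2 2.87, SE 0.34, adjusted p = 0.000171), a direction that neither Pim1 nor Pim3 took in KI. Pramel7 fell in both, from 31.6 ± 5.23 to 5.92 ± 0.813 CPM in WT, and by a larger log2 fold change in KI (−4.05, SE 0.79), a difference that did not pass (interaction −1.65, SE 0.96, adjusted p = 0.491).

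Between genotypes, 3 of the 14 targets were higher and 2 lower in KI in LIF/2i (median −0.09), and 0 were higher and 2 lower in LIF (median −0.08), where 25.4% and 13.4% of all genes were called. In LIF/2i, Myc was at 26.0 ± 18.3 CPM in KI against 5.33 ± 2.32 in WT (log2 2.32, SE 0.56, edgeR adjusted p = 0.00946), and Bcl6 (1.03, SE 0.32) and Junb (0.97, SE 0.33) were also higher. Pramel7 (−1.86, SE 0.50) and Pim2 (−1.24, SE 0.36) were lower there. In LIF, Klf5, a factor of self-renewal, was at 160 ± 47.7 CPM in KI against 323 ± 60.4 in WT (log2 −1.02, SE 0.19, adjusted p = 0.0059), and Pramel7 was lower again (−3.51, SE 0.82).

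Among 11 ligands and other receptors of the family, 5 were tested. Il6ra, the interleukin-6 receptor chain, was lower in LIF than in LIF/2i in WT (log2 −3.09, SE 0.48, edgeR adjusted p = 0.00062, from 15.9 ± 4.71 to 1.70 ± 0.708 CPM) and in KI (9.12 ± 4.54 to 1.12 ± 0.446 CPM, log2 −2.96, SE 0.45, adjusted p = 0.00063). Cntfr, the receptor chain for ciliary neurotrophic factor, was higher in LIF in both (2.66, SE 0.65, and 2.88, SE 0.47) and higher in KI than in WT in LIF (1.85, SE 0.47). The ligand gene Lif itself was low in LIF/2i, with 5.41 ± 1.79 CPM for WT and 1.82 ± 0.834 CPM for KI (log2 −1.53, SE 0.43, adjusted p = 0.021). Osm, encoding oncostatin M, was lower in KI in LIF/2i (−1.96, SE 0.54) and lower in LIF in both genotypes. The list medians were −0.79 and −0.67 between genotypes in LIF/2i and LIF, and −0.22 and 0.29 between media in WT and KI.

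The other 9 JAK and STAT genes had medians of −0.33, −0.06, −0.01 and 0.36 in the same 4 comparisons. Stat4 was higher in KI in LIF/2i (1.45, SE 0.33, edgeR adjusted p = 0.00699) and in LIF in each genotype (2.06, SE 0.33, in WT and 0.87, SE 0.28, in KI), and Jak3 was lower in KI in LIF/2i (−0.78, SE 0.27, adjusted p = 0.0493). Between genotypes, 25.4% of all genes were called in LIF/2i and 13.4% in LIF. Of 13 tested negative regulators other than the SOCS members above, Ptpn2, a phosphatase that acts on JAK1 and STAT proteins, was the one called there. It was higher in KI in LIF/2i (162 ± 22.3 against 97.0 ± 17.2 CPM, log2 0.74, SE 0.15, adjusted p = 0.00434) and in LIF (118 ± 1.59 against 67.7 ± 5.19 CPM, 0.80, SE 0.15, adjusted p = 0.00543), and lower in LIF than in LIF/2i (−0.52 in WT and −0.46 in KI). Pias2 was also lower in LIF in each genotype (−0.41 and −0.33, SE 0.10), and Pias4 in KI (−0.36, SE 0.11). The list medians were 0.09, 0.09, −0.16 and 0.02.

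The receptor also feeds the SHP2 and ERK branch (14 genes) and the PI3K branch (7 genes). In the ERK branch in LIF/2i, 3 of the 14 were higher in KI, among them Nras (log2 0.64, SE 0.20, edgeR adjusted p = 0.0356), and 1 was lower (Map2k1, −0.49, SE 0.13). In LIF 1 was higher and 1 lower (Shc1, −0.51, SE 0.15). Of all genes, 25.4% were called between genotypes in LIF/2i and 13.4% in LIF. Between media, Map2k1 was lower in LIF in each genotype (−0.56 and −0.43) and Gab1 higher in WT (0.69, SE 0.15). In the PI3K branch, Akt1 was higher in LIF in WT (20.7 ± 7.23 to 50.2 ± 12.3 CPM, log2 1.26, SE 0.24, adjusted p = 0.0032) and in KI (1.05, SE 0.23, adjusted p = 0.00725). Pik3r1 was lower in KI in LIF/2i (−0.91, SE 0.21) and in LIF in WT (−0.87, SE 0.21), and Pdpk1 was higher in KI in LIF/2i (0.46, SE 0.16). The medians were 0.11, 0.04, 0.19 and 0.11 for the ERK branch and −0.33, −0.17, −0.17 and −0.18 for the PI3K branch.

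**Figure D4:**
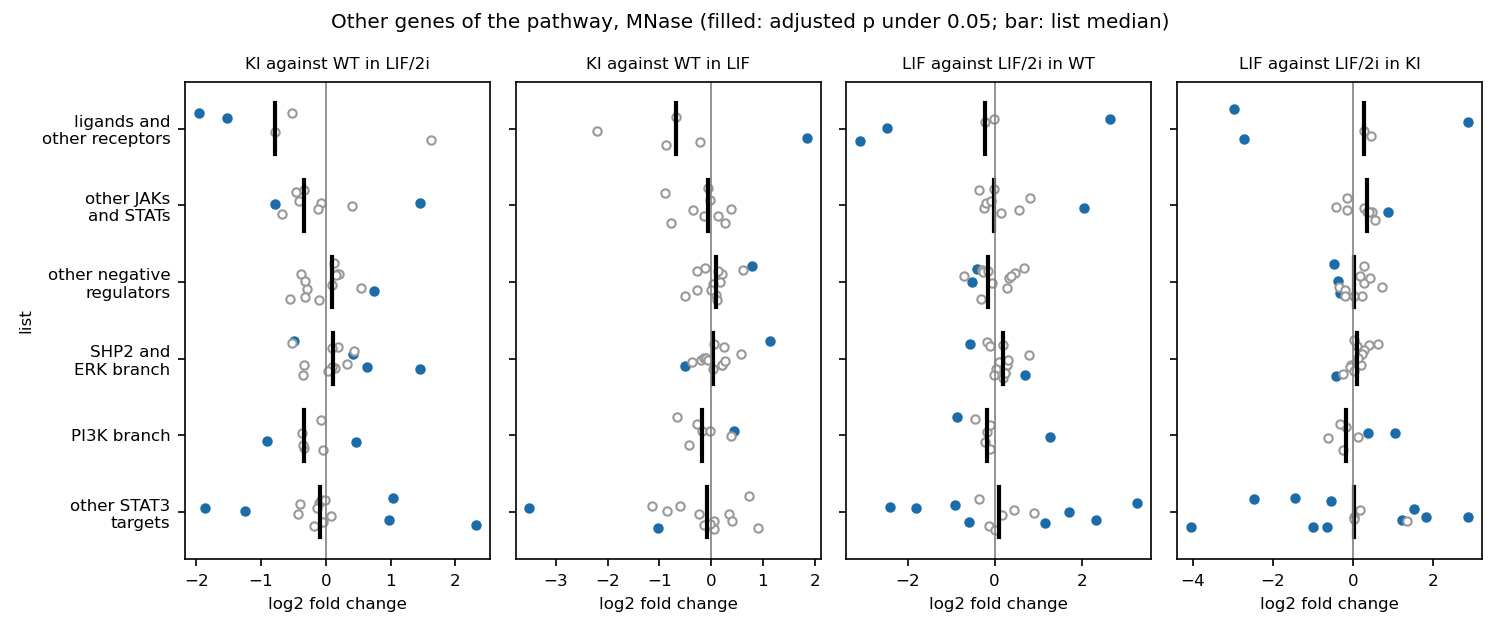
Log2 fold changes of other genes of the pathway with MNase in 4 comparisons; each point is a gene, filled where edgeR's adjusted p was under 0.05, and bars mark list medians. The STAT3 targets spread to both sides of 0 between media, with 8 of 14 called in WT and 10 of 14 in KI, while the list medians were 0.09 and 0.03. Of all genes, 21% and 18.7% were called in these comparisons.

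With RNase I, none of these wider lists had a called member between genotypes in either medium, where 0.232% (LIF/2i) and 0.116% (LIF) of all genes were called. Between media in WT, 5 STAT3 targets were higher and 3 lower in LIF, and in KI 2 were higher and 2 lower. Of all genes, 13.6% were called between media in WT and 3.46% in KI. The MNase difference of Ptpn2 in LIF/2i was not seen with RNase I, where levels in LIF/2i were 143 ± 34.5 CPM for WT and 123 ± 20.2 CPM for KI (SD, n = 2), and the ranges overlapped. In LIF, Ptpn2 with RNase I was at 108 to 122 CPM in KI and 85.8 to 93.2 CPM in WT without overlap, as with MNase, and did not pass (log2 0.36, SE 0.21, edgeR adjusted p = 0.49). With the replicate block, the difference between the nucleases in LIF/2i was −0.97 for Ptpn2 (SE 0.14, edgeR adjusted p = 0.000457; −0.99, adjusted p = 0.4, without the block).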

How the data were processed

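Ribosome footprint libraries (20) of mESCs were analysed. The deposited values are raw counts of footprints in coding sequences, 1 Ensembl transcript per gene, per the file headers. The submitters' processing notes name Bowtie 1.3.0, UMI-tools 1.0.1 and cutadapt 3.4, with no role stated; a genome build was not given in the sources used here. Molecular identifiers were part of the libraries, per the labels' protocols. Samples labelled as not treated with RNase I were taken as MNase from the same protocols. Of the gene names, 21755 matched a RefSeq symbol and 87 a synonym, and 574 were kept as written. The members and the wider lists were chosen with earlier results of these data known.

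Counts were fitted with edgeR 4.0.16 (R 4.3.3) by quasi-likelihood with TMM scaling and filterByExpr, separately for the 12 MNase libraries (12806 genes) and the 8 RNase I libraries (12095 genes), as a mean per group of genotype and medium, with all groups sharing 1 estimate of the spread. The nucleases were compared over replicates 1 and 2 (16 libraries, 12732 genes). Tests were two-sided, with Benjamini-Hochberg adjustment over all genes tested; errors and 95% intervals are those of the fit. The script was tested on simulated data. Levels are TMM-scaled CPM, and log2 CPM used a prior count of 2. Genes named were all members, Eif2s1, up to 4 called genes of smallest p per wider list and comparison with any needed to describe the list, and the 3 most similar genes per member; some genes of the wider lists are counted and not reported here by name. Nothing in the labels says that replicates were separate cultures, so p-values measure the spread between these libraries, which may be technical. No identical libraries were found (largest Spearman correlation 0.985).

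Same-numbered libraries were checked for pairing by correlating their deviations from group means over genes. The correlations were 0.486 to 0.71 between the nucleases in all 4 groups and 0.563, 0.315 and 0.393 between the media in KI with MNase, and the replicate block is given for these. With RNase I the media in KI gave 0.456, a single value from 2 pairs, and a replicate block over all RNase I groups called 0 members. They were −0.148 to 0.118 between the genotypes and between the media in WT, which were left unpaired. Alternatives were the replicate block, library totals, relative log expression scaling (RLE), DESeq2 1.42.0, no filter on low counts, thinning to the smallest library, leaving out KI replicate 1, both nucleases in 1 fit, and leaving out each library. The block within KI was chosen after seeing the data. RNA levels were not analysed here.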

Additional observations from a re-analysis of the deposited data

Results flagged for a closer look

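The genotype difference in LIF/2i differed between the nucleases for 2 members, by a test of that difference with the replicate block, in which 15.3% of all genes passed. For Socs3 the difference, RNase I minus MNase, was 0.56 on the log2 scale (SE 0.18, edgeR adjusted p = 0.0398), and for Bcl3 0.91 (SE 0.19, adjusted p = 0.0046). Over replicates 1 and 2, Socs3 with MNase was at 58.6 and 46.1 CPM in KI against 86.5 and 86.9 CPM in WT, and with RNase I at 71.6 and 62.7 against 85.7 and 67.8 CPM. Bcl3 was at 57.1 and 58.6 in KI against 98.6 and 102 CPM in WT with MNase, and at 44.7 and 69.0 against 44.8 and 59.6 CPM with RNase I. WT replicate 3 with MNase, which has no RNase I partner and so is not in this test, had Bcl3 at 49.4 CPM. Without the block, neither passed, nor did any other gene (adjusted p = 0.759 and 0.641).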

How the results depend on the processing

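Over settings other than leaving out a library, 634 of 662 member values kept their side of the threshold, 26 of them with a change of sign by less than 1 SE, while 5 lost a call, 21 gained one and 2 reversed by more. Over single libraries left out, 1522 of 1568 kept their side, 137 of them with such a change of sign, while 17 lost a call, 8 gained one and 21 reversed by more; no called value changed sign. Causes not evident from fewer samples or genes tested were not tested.

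Between genotypes in LIF/2i with MNase, 1 member was called, 2 with the replicate block (Socs3, and Jak1 at 0.51, adjusted p = 0.0395), and 4 without KI replicate 1 in both media. Of all genes, 25.4%, 26.8% and 39.1% were called in turn. With single libraries left out, Socs3 stayed called, Jak1 gained a call in 3 fits and Pim3 in 1 of these. In LIF, 1 was called, 0 with the replicate block (Bcl3 −0.91, adjusted p = 0.0535), 0 with both nucleases together (Bcl3 −0.65, adjusted p = 0.0774), and 2 without KI replicate 1 (Pim1 and Jak1). Of all genes, 13.4%, 14.7%, 20.8% and 26.7% were called in turn. With single libraries left out, Bcl3 lost its call in 8 fits, and Jak1 gained one in 1 of these. Replicate numbers do not pair the genotypes. Between media in WT, 0 were called (21% of all genes), or 1 (Pim1) without KI replicate 1 (32.3%). In KI, 2 were called (18.7%), 1 (Socs3) with library totals (19.1%) and 3 with the block within KI (26.1%). Over libraries left out, 0 to 3 were called. For the interaction, 0 were called (0.336%), or 2 (Socs3 and Pim3) without KI replicate 1 (3.45%). With RNase I, Bcl3 made 1 call between media in WT and 1 in KI with DESeq2, and also with no filter on low counts (−1.06, adjusted p = 0.0183, and −1.37, adjusted p = 0.0088); 0 were called in all RNase I fits that left out 1 library. For the nucleases, 2 were called, 6 with the replicate block, and 2 to 3 over libraries left out; for their difference between genotypes in LIF/2i, 0 were called, 2 with the replicate block and 0 over libraries left out. Stat3 gained a call without KI LIF/2i RNase I replicate 2 (0.24) and Pim3 without KI LIF/2i MNase replicate 2 (0.47). The replicate block changed no other member call in the unpaired comparisons.

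Reversed values were all uncalled. Without KI replicate 1 in both media, Lifr between genotypes in LIF was −0.17 with MNase, and with library totals Stat3 between media in KI was 0.11. The others reversed within ranges over single libraries left out, each named with the library whose loss turned the sign. For Lifr and KI LIF MNase replicate 1, the ranges were −0.16 to 0.27 (genotypes in LIF), −0.15 to 0.28 (media in KI) and −0.24 to 0.19 (interaction), and its nuclease differences in the first 2 ran from −0.44 to 0.39 and −0.51 to 0.32. With RNase I and WT LIF replicate 1, between genotypes in LIF the ranges were −0.52 to 0.28 for Socs3 and −0.60 to 0.43 for Bcl3, that of Bcl3 for the interaction −0.70 to 0.31, and between media in WT Socs3 ran from −0.06 to 0.73, with a nuclease difference of −0.38 to 0.44. With KI LIF RNase I replicate 1, between genotypes in LIF Lifr ran from −0.19 to 0.53 and Il6st from −0.27 to 0.17, and between media in KI Lifr from −0.35 to 0.38. For Pim1 between genotypes in LIF/2i and KI LIF/2i RNase I replicate 2, the range was −0.56 to 0.39 and that of the nuclease difference −0.55 to 0.41; between media in KI, and replicate 1, they were −0.32 to 0.63 and −0.17 to 0.79. Nuclease differences turned without KI LIF/2i MNase replicate 2 for Il6st (−0.30 to 0.28 between genotypes in LIF/2i, −0.11 to 0.47 between media in KI) and Pim3 (−0.22 to 0.76 between media in KI), and without replicate 1 for Pim3 (−0.40 to 0.58 between genotypes in LIF/2i).

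Library totals moved the median of all genes from 0.006 to −0.102 between genotypes in LIF/2i (share of calls higher in KI 54.6% to 40.6%) and from −0.003 to 0.102 between media in KI (44.8% to 58.2% higher in LIF); Lifr (−0.04) and Stat3 (−0.02) then changed sign between genotypes in LIF/2i, both uncalled. Over all genes with MNase, calls went without KI replicate 1 from 3250 to 4949 and from 1718 to 3384 between genotypes in LIF/2i and LIF, from 2690 to 4090 between media in WT and from 43 to 437 for the interaction. With both nucleases together the counts were 2718 (genotypes in LIF), 4802 (media in WT) and 263 (interaction), and with DESeq2 215 (interaction). With RNase I, calls between genotypes went from 28 to 50 (replicate block), 274 (DESeq2) and 326 (no filter) in LIF/2i and from 14 to 27, 202 and 200 in LIF, or 6 with library totals; between media in KI from 418 to 825 (DESeq2) and 1017 (no filter); and for the interaction from 0 to 27 and 29. Nuclease calls went from 3836 to 6919 with the replicate block, and for the difference between genotypes in LIF/2i from 0 to 1950, or 79 with DESeq2. Socs2 had 0 to 8 footprints per library, 3 in the deepest. RNase I rests on 2 libraries per group, with wider intervals than MNase for Socs3 and Bcl3.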
